A study of Mus musculus with 40 samples.

Results

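Atf4, Dnajc3, Pdia3, P4hb and Canx, 5 mouse genes of the integrated stress response and of protein folding in the endoplasmic reticulum (ER), were read on 11 of 15279 probes; the probes with a single symbol name 6970 genes in all. The probes are those whose annotation names exactly 1 of these genes. The genes themselves were chosen by their measured values in these arrays, so their treated-over-control values are given as a description. Where it is said that they passed or missed the threshold of the fit over all probes, nothing is supported by it. Cultured mouse embryos were exposed for 5 h at 37 °C to 40 µM 4-hydroperoxycyclophosphamide, a pre-activated analogue of the alkylating drug cyclophosphamide, with the drug present throughout. Untreated control embryos were cultured at the same temperature. Total RNA of both was hybridised together on 40 two-colour arrays of 2 designs that carry different probes. Each design has 5 replicates, and each replicate has slides of both dye orientations. The labels give each slide number plain and with a B mark, which was taken here as 2 readouts of the same slide. The labels state neither the age and number of embryos per sample nor whether the replicates came from separate cultures, so p-values measure the spread between these replicates only.

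ATF4 is a transcription factor whose mRNA is translated more efficiently when the initiation factor eIF2 is phosphorylated, the core event of the integrated stress response. An array reads its mRNA and not this step. Calnexin (Canx) is an ER membrane lectin that holds newly made glycoproteins, and PDIA3, also called ERp57, is the disulfide isomerase that works beside it. P4HB is the classical protein disulfide isomerase and also the beta subunit of collagen prolyl 4-hydroxylase. DNAJC3, also called p58IPK, is an ER co-chaperone of the HSP70 protein BiP and has been described as an inhibitor of the eIF2 kinase PERK. In the unfolded protein response, ATF6 and XBP1 act on folding genes through the ER stress response element (ERSE), while ATF4 acts on its own targets through C/EBP-ATF elements.

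The promoters of Atf4, Dnajc3 and Canx are shown because Atf4 had the lowest value of the 5 genes, and because ERSE letters occur in the other two, one near 0 and one above it. The windows run 250 bases before to 50 bases after the gene's start, 5′ to 3′ on the gene's strand, from RefSeq on build GRCm38.p6, where all 5 genes were matched. Capitals mark the outer bases of an ERSE match, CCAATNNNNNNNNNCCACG on either strand.

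Atf4, plus strand, chr15:80254934-80255233: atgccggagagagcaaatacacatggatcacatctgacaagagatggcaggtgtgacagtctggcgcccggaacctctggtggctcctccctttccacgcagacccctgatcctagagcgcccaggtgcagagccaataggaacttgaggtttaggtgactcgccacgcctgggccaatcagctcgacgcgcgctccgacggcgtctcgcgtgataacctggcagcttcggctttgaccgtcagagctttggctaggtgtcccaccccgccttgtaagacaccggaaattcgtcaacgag

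Dnajc3, plus strand, chr14:118937682-118937981: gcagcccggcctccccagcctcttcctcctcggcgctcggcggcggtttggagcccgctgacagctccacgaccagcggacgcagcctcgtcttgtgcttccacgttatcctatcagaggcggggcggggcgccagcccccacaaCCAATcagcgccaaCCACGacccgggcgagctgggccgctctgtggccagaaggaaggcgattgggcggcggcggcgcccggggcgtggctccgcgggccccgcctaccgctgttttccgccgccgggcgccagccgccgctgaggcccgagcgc

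Canx, minus strand, chr11:50325624-50325923: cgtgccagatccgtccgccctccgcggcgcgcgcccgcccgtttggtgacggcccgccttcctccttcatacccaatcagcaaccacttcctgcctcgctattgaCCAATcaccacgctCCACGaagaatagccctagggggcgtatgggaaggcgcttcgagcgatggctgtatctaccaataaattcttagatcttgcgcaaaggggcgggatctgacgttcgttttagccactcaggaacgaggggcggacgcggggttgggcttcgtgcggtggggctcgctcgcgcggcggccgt

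The Dnajc3 match lay at positions −105 to −87 relative to the start, and the Canx match at −145 to −127. ERSE was found in 39 of 32851 promoter windows (0.119%). No match was found in the windows of Atf4, Pdia3 (chr2:121413652-121413951, plus strand) or P4hb (chr11:120573204-120573503, minus strand). The 5 windows held no ERSE-II (ATTGGNCCACG, in 0.0365% of windows), UPRE (TGACGTGG, 0.676%) or C/EBP-ATF element (TGATGNAA, 3.97%) on either strand. ERSE, ERSE-II and UPRE share the letters CCACG, which read CGTGG on the other strand, and a match or its absence says only which letters are in the window.

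Values below are log2 ratios of treated over control embryos, relative to the median probe of the array and averaged over both dye orientations, with 1 value per replicate. Deposited ratios are of one channel over the other, and their log base and numerator are not stated. Base 2 was taken from the tail of 1 array, and the numerator was taken as channel 1 because the labels list the channels in that order. With this reading Ccng1, a p53 target and not one of the 5 genes, was higher in treated embryos in 5 of 5 replicates on all 3 of its probes (2.41 ± 0.31 and 2.90 ± 0.46 on array design 1, 1.39 ± 0.40 on array design 2, SD, n = 5). The direction is therefore likely and not settled: arrays of the same orientation from different replicates correlated as low as −0.31 on array design 1 and −0.54 on array design 2. With channel 2 over channel 1 every sign below turns. Array medians ran from −1.73 to 1.69, and without centring the median probe lay at −0.24 on array design 1 (replicates −0.43 to −0.10) and −0.43 on array design 2 (−0.65 to −0.11). In 1 readout of replicate 4 on array design 1, the one from which base 2 was taken, 786 of 7680 values (10.2%) were missing. Ratios hold no levels, so neither dim spots nor the tissue could be checked.

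Atf4, measured by 1 probe on array design 2, was lower in treated than in control embryos in 5 of 5 replicates. Its log2 ratios in replicates 1 to 5 were −0.42, −0.50, −0.49, −0.26 and −0.38. The values lay close together, with replicate 4 nearest to 0. Their mean was −0.41 ± 0.10 (SD, n = 5), or 1.33-fold lower. Only 2 of the 7599 probes on the design had a lower mean, and neither is named by a single gene symbol. With the sign turned only those 2 would be higher. As in any extract of whole embryos, fewer cells of a type and less RNA per cell cannot be told apart.

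Canx was measured by 2 probes on each design. On array design 2, probe 2 had log2 ratios of 0.45, 0.53, 0.38, 0.36 and 0.58, all above 0, with a mean of 0.46 ± 0.10 (SD, n = 5), or 1.38-fold higher in treated embryos. Probe 1 had 0.27, 0.32, 0.24, −0.14 and 0.00 in the same replicates, with a mean of 0.14 ± 0.20. The highest value of probe 1 was below the lowest value of probe 2, so the probes of this one gene did not overlap. On array design 1, where other probes were printed, probe 1 had 0.08, 0.38, 0.35, 0.38 and 0.66 and probe 2 had 0.23, 0.29, 0.21, 0.55 and 0.77. Both were above 0 in 5 of 5 replicates there, with means of 0.37 ± 0.21 and 0.41 ± 0.24 (SD, n = 5). Each lacked 1 of its 20 array values, in replicate 4. Of the 4 Canx probes, 3 thus had means between 0.37 and 0.46, and the other stood lower.

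Pdia3 was measured by 1 probe, on array design 2. Its log2 ratios were 0.42, 0.64, 0.43, 0.43 and 0.56, with the lowest 3 values nearly equal. The mean of 0.49 ± 0.10 (SD, n = 5), or 1.41-fold higher in treated embryos, was the highest of the 11 probes and stood 75th from the top of 7599.

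P4hb had 2 probes on array design 2, which read alike. Probe 1 had log2 ratios of 0.40, 0.34, 0.17, 0.20 and 0.33, with a mean of 0.29 ± 0.10 (SD, n = 5), or 1.22-fold higher. Probe 2 had 0.39, 0.31, 0.16, 0.28 and 0.33, with a mean of 0.29 ± 0.09, or 1.23-fold higher. Replicate 3 gave the lowest value on both probes and replicate 1 the highest.

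Dnajc3 stayed near 0 on array design 2. Its first probe had log2 ratios of 0.01, −0.12, −0.01, 0.06 and −0.03, with a mean of −0.02 ± 0.07 (SD, n = 5). Its second had −0.00, −0.06, −0.10, 0.06 and −0.06, with a mean of −0.03 ± 0.06. The replicates fell on both sides of 0. The Dnajc3 probe on array design 1 was more scattered at 0.19, −0.17, 0.19, 0.34 and −0.05, with a mean of 0.10 ± 0.21. Without 1 replicate in turn that mean was 0.04 to 0.17, and it was −0.09 with treated RNA in channel 1 alone and 0.29 in channel 2 alone.

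**Figure D1:**
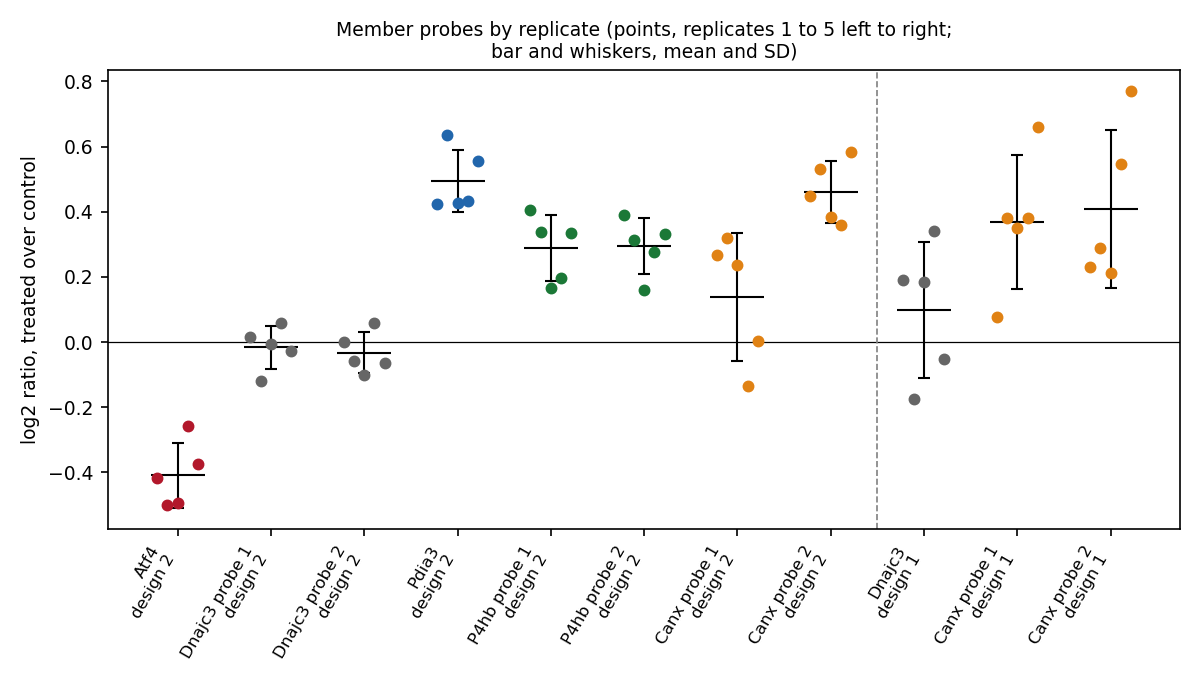
Log2 ratios of treated over control embryos (y axis, relative to the array's median probe) for the 11 probes of the 5 genes (x axis), with 1 point per replicate, replicates 1 to 5 left to right, and bars and whiskers for mean and SD. All 5 Atf4 points lie below 0, the Dnajc3 points lie around 0, and all points of Pdia3, P4hb and Canx other than the first Canx probe of design 2 lie above 0. Without centring of the arrays the gene means of P4hb and Canx on design 2 were below 0.

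Ordered by mean on array design 2, Atf4 came lowest, followed by both Dnajc3 probes, Canx probe 1, both P4hb probes, Canx probe 2 and Pdia3. Atf4 and the Dnajc3 probe next to it did not overlap over replicates, and their means were 0.38 apart. Every other pair of neighbours in this order overlapped. Within each replicate, each of the 7 folding probes was above Atf4, by means of 0.38 to 0.90. The mean of the 4 folding genes minus Atf4 was 0.71, 0.83, 0.71, 0.47 and 0.66 in replicates 1 to 5 (0.67 ± 0.13, SD, n = 5), with replicate 4 the smallest. These are differences between changes and not between RNA levels. Both sides of the difference were chosen on these values.

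In the limma fit over all probes, at an adjusted p threshold of 0.05, 5 of the 8 probes on array design 2 passed. Of these, 4 were higher in treated embryos, the probes of Pdia3 and P4hb and Canx probe 2, where 19.8% of all probes were called higher. Atf4 was the 1 called lower, where 8.07% of all probes were. None of the 3 probes on array design 1 passed, where 0.651% of all probes were called. Since the genes were picked on this contrast, nothing is read from these counts. The 2114 calls on array design 2 comprised 1501 higher and 613 lower, against 21 higher and 6634 lower without centring, 1151 higher and 180 lower with arrays scaled to one spread, and 1013 in all without replicate 1. The 50 calls on array design 1 comprised 49 higher and 1 lower, against 19 higher and 4596 lower without centring, and ranged over 7 to 82 with 1 replicate left out.

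**Figure D2:**
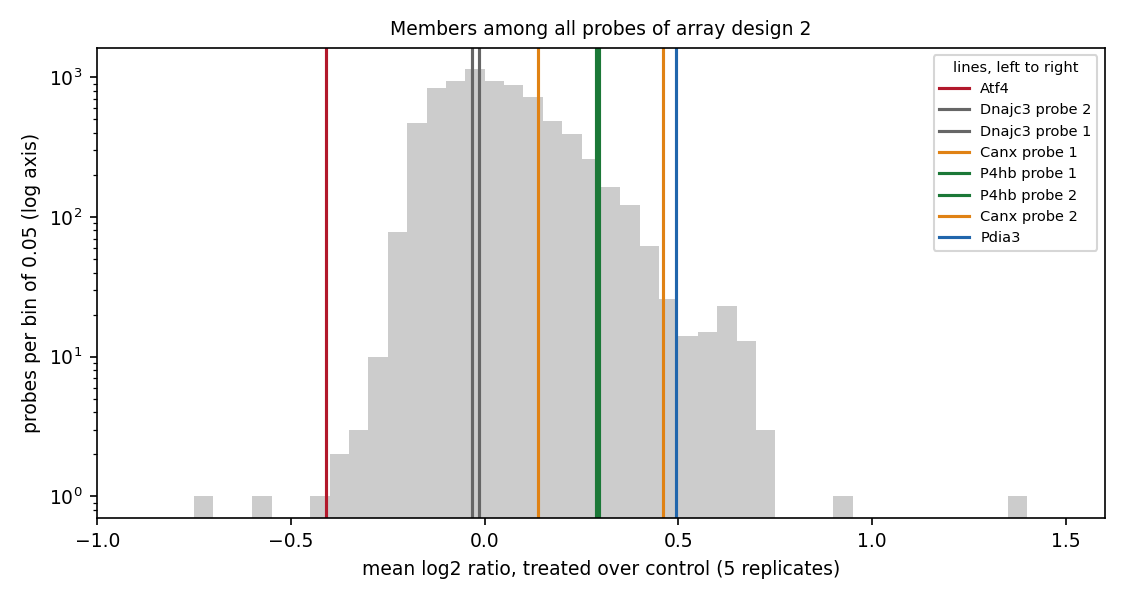
Number of probes per bin of mean log2 ratio of treated over control embryos on array design 2 (grey, log axis), with the 8 probes of the 5 genes as coloured lines. The Atf4 line at −0.41 lies at the low edge of all 7599 probes, the Dnajc3 lines lie in the middle, and the Pdia3 line at 0.49 lies in the upper tail. Without centring of the arrays all lines move down with the median probe, and the P4hb lines and the mean of the Canx lines fall below 0.

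Each replicate value is a mean over slides on which the treated RNA lay in channel 1 and slides on which it lay in channel 2, and the 2 orientations of a replicate often differed. For Atf4, with treated RNA in channel 1, replicates 1 to 5 gave log2 ratios of −0.96, 0.19, −0.50, −0.75 and −0.05. With treated RNA in channel 2 they gave 0.13, −1.20, −0.49, 0.23 and −0.70. Replicates low in one orientation were high in the other, apart from replicate 3, and the orientation means were −0.41 ± 0.48 and −0.41 ± 0.59 (SD, n = 5). The single arrays of Atf4 ran from −1.69 to 0.45, with 14 of 20 below 0.

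Pdia3 showed the same crossing, with −0.55, 1.08, −0.14, −0.23 and 1.14 in channel 1 and 1.40, 0.19, 0.99, 1.09 and −0.03 in channel 2. Its orientation means were 0.26 ± 0.79 and 0.73 ± 0.62 (SD, n = 5). The P4hb means were alike in both orientations, 0.32 and 0.26 on probe 1 and 0.35 and 0.24 on probe 2. Canx probe 2 had 0.35 in channel 1 and 0.57 in channel 2, while Canx probe 1 had −0.04 and 0.31. The 2 Dnajc3 probes had −0.05 and −0.09 in channel 1 and 0.02 and 0.02 in channel 2. For Atf4, Pdia3, P4hb and Canx probe 2 the small SD of the replicate values was thus seen only after both orientations were averaged. With either orientation alone none of their 5 probes passed the threshold. Of all 7599 probes, 1190 passed with treated RNA in channel 1 alone and 117 in channel 2 alone.

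**Figure D3:**
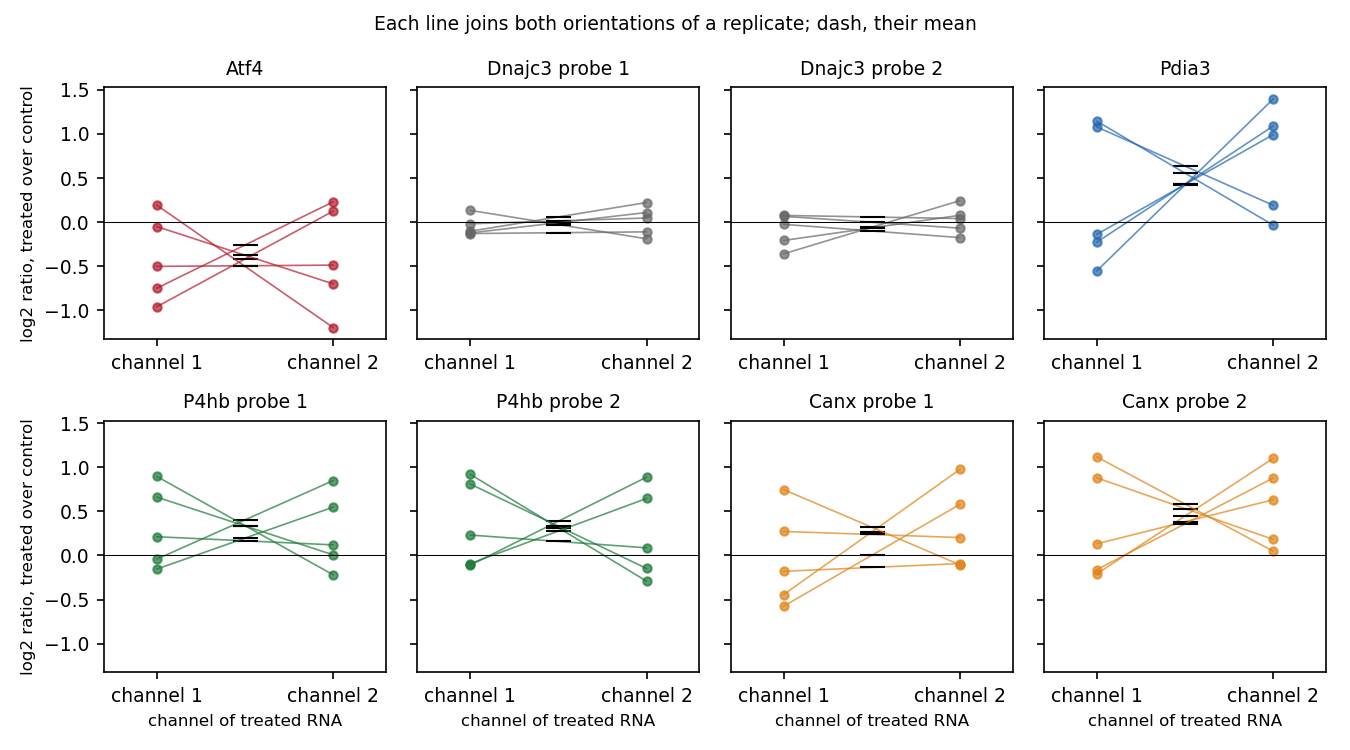
Log2 ratios of treated over control embryos on array design 2 (y axis) by the channel that held the treated RNA (x axis), 1 panel per probe and 1 line per replicate, with a dash at the mean of both orientations. The lines of Atf4, Pdia3, P4hb and Canx cross, and the dashes lie much closer together than the points at either end.

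The mean of both orientations without turning the sign, the dye part, was not used to choose the genes and was tested against 0. On array design 1 16.2% of all probes passed in this test, and none of the 3 probes did (limma adjusted p from 0.170 to 0.937). On array design 2 0.0% of all probes passed, and 1431 of 7599 did at an unadjusted p under 0.05, none of them among the 8 probes. An ordinary one-sample test also called no probe on array design 2. The dye part of Atf4 there averaged −0.00 ± 0.53 and that of Pdia3 −0.23 ± 0.70 (SD, n = 5), so their channel effects changed sign between replicates.

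Slides belong to a 2000 and a 3000 series, the only batch in the labels, which splits the replicates of array design 2 into 1 to 3 and 4 to 5, and those of array design 1 into 1 to 2 and 3 to 5. This difference was likewise not used to choose the genes. In the 3000 series Atf4 averaged −0.32, against −0.47 in the 2000 series, a difference of 0.15 ± 0.11 (SE, limma adjusted p = 0.659). Pdia3 averaged 0.49 and 0.50, P4hb 0.27 and 0.30 on probe 1 and 0.30 and 0.29 on probe 2, and Canx probe 2 0.47 and 0.45, all in the same order of series. The differences of Pdia3, P4hb and Canx probe 2 were each smaller than their SE, as were those of the 3 Dnajc3 probes (0.05 and 0.05 on array design 2, 0.15 on array design 1). Canx probe 1 averaged −0.07 in the 3000 series against 0.28 in the 2000 series, a difference of −0.34 ± 0.11 (SE) that did not pass after adjustment (limma adjusted p = 0.251) and was the only one of the 8 probes under an unadjusted p of 0.05. Both Canx probes of array design 1 were higher in the 3000 series, by 0.23 ± 0.15 and 0.25 ± 0.17 (SE, limma adjusted p = 0.999 for each). Over all probes 0.0% passed on either design, 142 of 7680 and 719 of 7599 were under an unadjusted p of 0.05, and an ordinary test called none.

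The values also depended on a dye trend and on the centring. On array design 2 a smooth function of the dye part over all probes accounted for 35.3% to 61.6% of the spread (variance) within each replicate. With this dye-profile trend removed, Atf4 was further from 0 at −0.59 ± 0.08, while Pdia3 was 0.19 ± 0.10, Canx probe 2 0.27 ± 0.11, and the P4hb probes 0.14 ± 0.10 and 0.11 ± 0.07 (SD, n = 5). Both P4hb probes then missed the threshold, in a setting where 3.15% of all probes were called higher and 1.88% lower. Without centring, Atf4 was −0.84, Dnajc3 −0.45, Pdia3 0.07, and P4hb and Canx lay below 0 at −0.14 and −0.13. The distance of the folding genes from Atf4 was 0.67 in that setting too, as a shift of whole arrays cancels in it, and 0.72 with the trend removed.

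**Figure D4:**
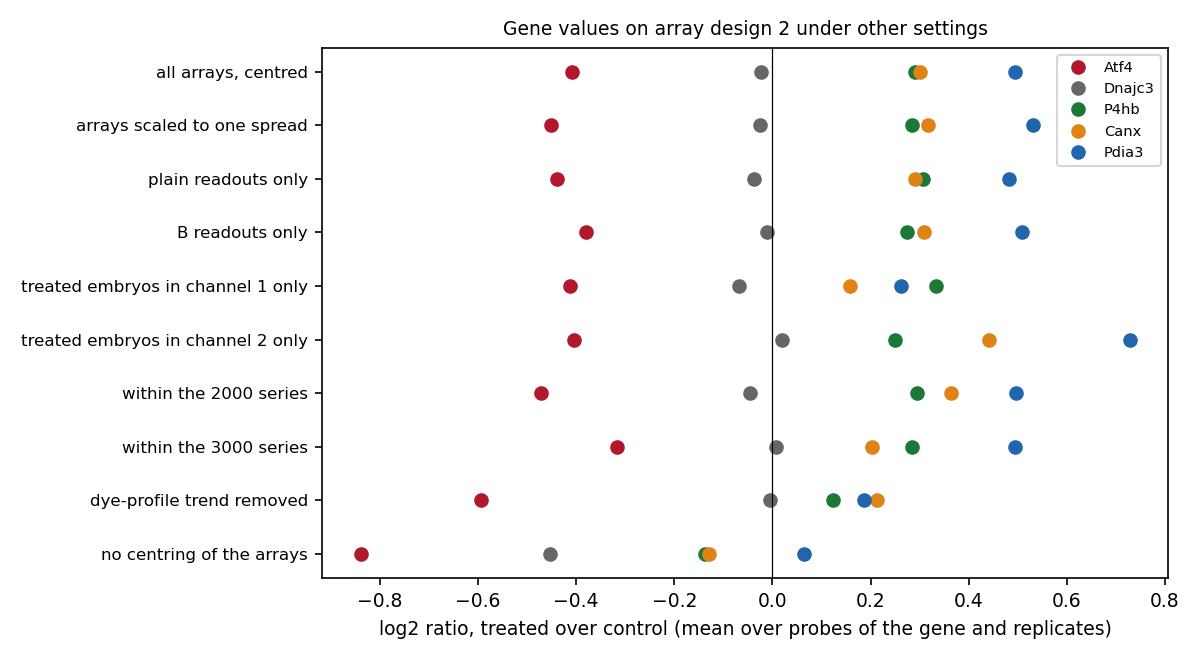
Mean log2 ratio of treated over control embryos on array design 2 (x axis, mean over the probes of a gene and over replicates) for the 5 genes under 10 settings (y axis). Atf4 is the lowest gene in each setting and stays below 0. P4hb and Canx are above 0 in the settings shown other than the one without centring, where all 5 genes lie lower. Canx is the mean of 2 probes. Its probe 1 alone was below 0 with treated RNA in channel 1 alone (−0.04) and within the 3000 series (−0.07), both centred.

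Other genes of the pathway were read from 10 lists that were drawn up with earlier results known. Leaving out Dnajc3, Pdia3, P4hb and Canx, which have 7 probes in these lists, 28 of 105 probes were higher on array design 2 (26.7%) and 5 lower (4.76%), where 19.8% and 8.07% of all probes were. Their median was 0.07, beside 0.02 for all probes. With the trend removed 3 were higher and 3 lower, where 3.15% of all probes were called higher and 1.88% lower. Over all 112 listed probes, those 7 included, 32 were higher and 5 lower, against 0 higher and 91 lower without centring, 5 higher and 3 lower with the dye-profile trend removed, and 20 in all without replicate 1. On array design 1, 113 probes of 84 genes held no call, with 36 under an unadjusted p of 0.05. The lowest limma adjusted p was 0.0505, for Srp72 of the translocon list (0.40). Ero1a (0.27), Stt3a (0.17) and Mia3 (0.16) had the smallest p of the isomerase, oligosaccharyltransferase and collagen lists there. With the trend removed Srp72, Ero1a, Stt3a and Mia3 read 0.20, 0.09, −0.03 and 0.02. An ordinary test called 1 listed probe on array design 1.

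Upstream of ATF4, the list of integrated stress response kinases, eIF2 and its regulators had 3 of 8 probes higher and none lower on array design 2, with a median of 0.11, where 19.8% of all probes were higher. They were Eif2b2, a subunit of the eIF2 exchange factor (0.24 ± 0.27), Impact, an inhibitor of the kinase GCN2 (0.22 ± 0.28), and Abce1, a ribosome recycling factor (0.17). With the trend removed none of the 3 passed and the median was −0.03. Eif2s2, the beta subunit of eIF2, was then lower (−0.23, against 0.05 with the trend kept). In that setting 3.15% of all probes were called higher and 1.88% lower. Ppp1r15a, the stress-induced eIF2 phosphatase subunit, read −0.17 on array design 1 without a call (limma adjusted p = 0.0629). Probes named for the kinase gene Eif2ak3 and for Eif2s1 were not among those used.

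Among ATF4 partners and targets, 3 of 20 probes were lower and none higher on array design 2, with a median of −0.02, where 8.07% of all probes were lower. They were both probes of Vldlr, a lipoprotein receptor (−0.21 ± 0.10 and −0.14 ± 0.05, SD, n = 5), and Lars, a leucyl-tRNA synthetase (−0.20). With the trend removed none of these 3 passed, at −0.09, 0.01 and −0.10, while the tRNA synthetase genes Tars (−0.21) and Eprs (−0.20) did. The share of all probes called lower was 1.88% in that setting. All these values are relative to the median probe, which itself lay at −0.43 without centring, where all listed calls were lower. Asns, the asparagine synthetase gene often used to read ATF4 activity, was 0.14 ± 0.18 (SD, n = 5), without a call (limma adjusted p = 0.0939). With the trend removed Asns was −0.01. The 21 probes on array design 1 held no call, with 4 under an unadjusted p of 0.05. Atf3 read −0.15 and Trib3 0.08 there. Cars, a cysteinyl-tRNA synthetase, had the smallest p, at −0.19 (limma adjusted p = 0.0536).

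The sensors of ER stress and their factors had 1 of 10 probes lower on array design 2 and none higher, with a median of −0.01, near the 8.07% of all probes. It was a probe of Ern1, the kinase and nuclease IRE1 (−0.18 ± 0.12, SD, n = 5), which did not pass with the trend removed (−0.08). The other Ern1 probe on this design read −0.04. On the other design a probe of Ern1 had the smallest p of the list, at −0.25 without passing (limma adjusted p = 0.0516), and its second probe there read −0.06. Xbp1, whose mRNA IRE1 splices, read −0.01 on array design 2, and Atf6 −0.05 on array design 1. ER-associated degradation had no call on either design. Ube2j1, a ubiquitin-conjugating enzyme of this pathway, came closest on array design 2 (−0.13, limma adjusted p = 0.0625), where 2 of the list's 14 probes were under an unadjusted p of 0.05 and an ordinary test called none. Vcp, the ATPase that extracts proteins from the membrane, did so on array design 1 (0.26, limma adjusted p = 0.0516), with 4 of 14 under 0.05 and none called by an ordinary test.

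Closest to Dnajc3 by function, the ER HSP70, HSP90 and J proteins other than Dnajc3 had 3 of 9 probes higher and 1 lower on array design 2, with a median of 0.10, where 19.8% of all probes were higher and 8.07% lower. The higher ones were both probes of Dnajc10, a J protein with disulfide reductase activity (0.27 and 0.24), and Sil1, the BiP nucleotide exchange factor (0.25). Sec63, a J protein of the translocon, was lower (−0.17). None of the 4 passed once the trend was removed, where 3.15% of all probes were called higher and 1.88% lower. Hspa5, which encodes BiP, was read by 3 probes on array design 1 at 0.25 ± 0.41, 0.19 ± 0.31 and 0.09 ± 0.28 (SD, n = 5). Each was above 0 in 3 of 5 replicates. Hsp90b1 was read by 2 probes there at 0.26 ± 0.33 and 0.26 ± 0.33. None of these was called. With the trend removed the Hspa5 probes read −0.06, −0.02 and −0.16, and the Hsp90b1 probes −0.003 and −0.002. Probes named for Hyou1 and for Ddit3 were not among those used.

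Around Pdia3 and P4hb, 8 of 16 probes for disulfide isomerases and oxidases were higher on array design 2 and none lower. Leaving out Pdia3 and P4hb, 5 of 13 were, with a median of 0.13, where 19.8% of all probes were higher. Pdia6, a further isomerase, passed on both probes (0.31 ± 0.12 and 0.25 ± 0.15, SD, n = 5). Prdx4, an ER peroxiredoxin, passed on both as well (0.21 and 0.17). Around Canx, 6 of 8 probes were higher, and 5 of 6 without Canx, with a median of 0.20, beside the same 19.8%. These 5 were Ganab, a subunit of glucosidase II (0.22), both probes of Lman2 (0.21 and 0.20), Ergic3 (0.21) and Lman1 (0.19). Lman1, Lman2 and Ergic3 act in transport between ER and Golgi, and not on folding itself. With the trend removed, Pdia3 was the only call left among the isomerases and Canx probe 2 the only one in this list. Of all probes 3.15% were called higher in that setting. Calr, the soluble counterpart of calnexin, read 0.30 ± 0.23 and Pdia4 0.30 ± 0.38 on array design 1 (SD, n = 5). Neither was called (limma adjusted p = 0.0568 and 0.141), and with the trend removed they read 0.04 and −0.05.

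Ahead of folding, 6 of 13 probes of the translocon and signal recognition machinery were higher and none lower, with a median of 0.13, where 19.8% of all probes were higher. Among them were Sec61g, a subunit of the channel (0.35 ± 0.08), Ssr3 (0.30), Sec62 (0.23) and Tram1 (0.19). Oligosaccharyltransferase had 3 of 6 higher, Krtcap2 (0.31), Stt3b (0.22) and Dad1 (0.22), with a median of 0.18, beside the same share of all probes. In collagen hydroxylation and folding, the pathway in which P4HB is a subunit, 3 of 6 were higher, with a median of 0.23, again beside 19.8% of all probes. They were Serpinh1, the collagen chaperone HSP47 (0.54 ± 0.32), and both probes of Fkbp9, an ER prolyl isomerase (0.35 and 0.33). With the trend removed Sec61g, Krtcap2 and the first Fkbp9 probe still passed, 1 in each of these lists. The share of all probes called higher was 3.15% then. Without centring no probe of any list was called higher.

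**Figure D5:**
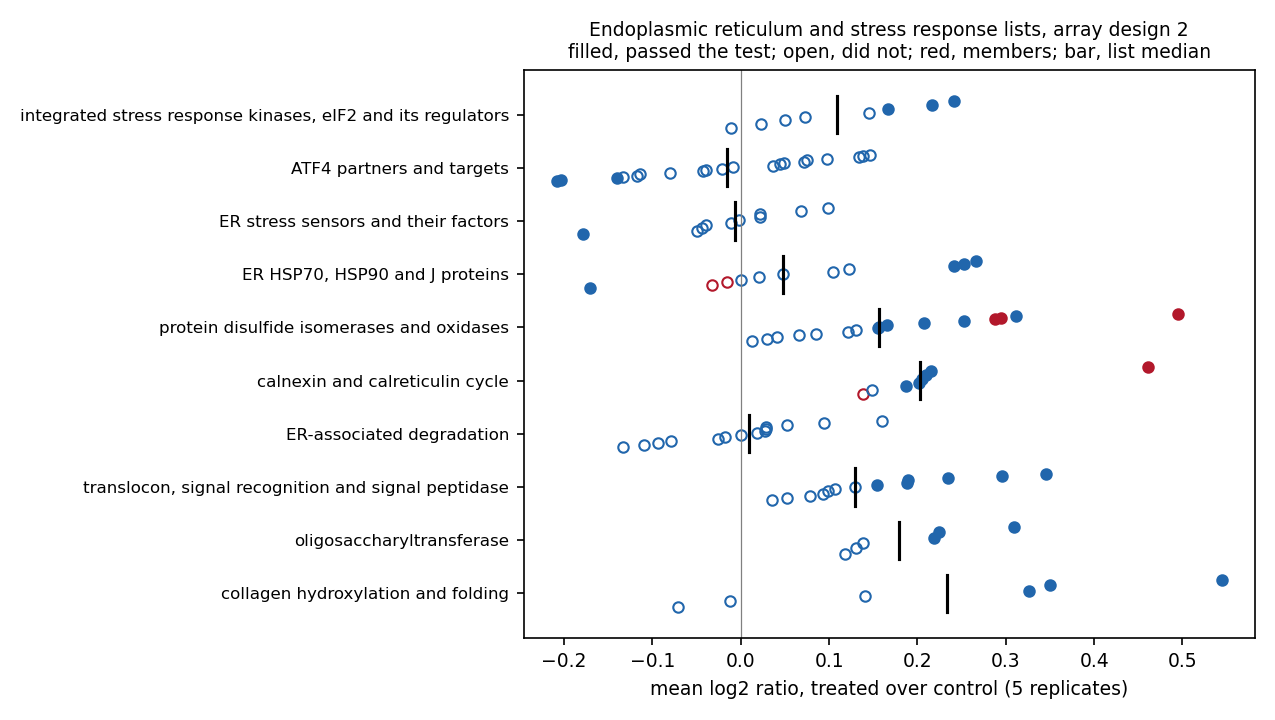
Mean log2 ratio of treated over control embryos (x axis) for each probe of the 10 lists on array design 2 (y axis), filled where the probe passed and open where it did not, red for Dnajc3, Pdia3, P4hb and Canx (Atf4 is in none of the lists), with a bar at the list median. The isomerase, calnexin, translocon and oligosaccharyltransferase probes lie above 0, and those of ATF4 partners, stress sensors and degradation lie on both sides of it. Without centring all calls in these lists were lower in treated embryos.

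Relative to the median probe, globin probes of the erythroid marker list were higher in treated embryos, as Canx, Pdia3 and P4hb were. Of 9 erythroid probes on array design 2, 7 were higher and none lower, all 7 of globin genes. Of all probes there, 19.8% were higher and 8.07% lower. The 9 probes had a median of 0.58 and a range from −0.00 to 0.63. With the trend removed the median was 0.28 and 4 passed, where 3.15% of all probes were called higher and 1.88% lower. Alas2 and Slc4a1, 2 further erythroid genes, read −0.00 and 0.11 without passing, and Gata1 read −0.06 on array design 1. The part of these markers in the values of the 5 genes was not tested. No other marker list had a probe called higher. Visceral endoderm had 5 probes on array design 1 with a median of −0.07 and none called, with 1 under an unadjusted p of 0.05 and none called by an ordinary test. Of 2 placenta and decidua probes on array design 2, both of Dcn, 1 was lower (−0.18), and 4 on array design 1 read from −0.26 to −0.01. The 2 neural probes there read 0.04 and 0.36, and no heart or muscle marker was measured.

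The genes most like each probe were taken as the 2 with another symbol on the same design whose 5 replicate values had the smallest mean absolute difference from it. For Atf4 these were Meis1 (difference 0.119) and Gmds (0.142), a larger distance than for any other of the 11 probes. For Pdia3 they were Igf2 (0.026) and Jpt2 (0.040), and for Canx probe 2 on array design 2 Igf2 (0.028) and Rbbp5 (0.047). Pdia3 and Canx probe 2 thus shared their nearest gene. The P4hb probes had Kansl1 (0.022) and Cct5 (0.029), and Rpl3 (0.015) and Ghitm (0.021). The Dnajc3 probes on array design 2 had Mpdu1 (0.015) and Parp2 (0.021), and Pip4k2c (0.021) and Ankrd40 (0.022). Canx probe 1 there had Sp110 (0.046) and Ltv1 (0.049). Nearest on array design 1 were Psme1 and Maip1 to Dnajc3, Tspan5 and Cacybp to Canx probe 1, and Zfp943 and Map3k12 to Canx probe 2.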

How the data were processed

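RNA of treated and control mouse embryos was compared on 40 two-colour arrays. Per the labels, treated RNA lay in channel 1 or channel 2. The authors deposited 1 table of uncentred log ratios per array design, taken here as log2. The base was read from 1 readout, that of replicate 4 on array design 1 which lacked 10.2% of its values. Its 404 values below −3 had a mean excess of 1.46 ± 0.08 (SE). Base 2 predicts 1.44, natural logarithms 1 and base 10 0.434, on the untested assumption that a channel lay near background there. Scanning, background correction and normalization are steps not given in the sources used here, and neither is the meaning of the B mark.

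Each array was centred on its median and spots with the same accession were averaged, leaving 7680 and 7599 probes. Readouts were averaged, arrays with control in channel 1 were turned, and both orientations were averaged into 1 value per replicate. Probes with at least 3 replicate values were tested against 0 within each design with limma 3.58.1 (lmFit, eBayes) in R 4.3.3, two-sided, with Benjamini-Hochberg adjustment at 0.05. The dye-profile trend was fitted with mgcv 1.9.3 on 3 principal components of the dye parts. The fit was tested on simulated data with independent normal noise for each probe. That simulation held no dye trend, so it cannot show how the fit behaves with one. The number of replicates, 5 per design, limits the precision of the tests, and ratios give no depth.

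Before averaging, 4749 and 4935 spots on array designs 1 and 2 had 1 symbol, 227 and 275 several and 2704 and 2470 none. Of those with 1 symbol, 4712 and 4884 matched the GRCm38.p6 gene table, which changed no symbol. The genes, lists, tests and alternatives were chosen with earlier results of these data known. Named are the 5 genes, up to 4 called probes with the smallest p per list and design (or the 1 with the smallest p), a fixed set of 15 stress and folding genes, and the 2 nearest genes per probe. Ccng1, Prdx4, Eif2s2, Tars, Eprs, Lman1, the second Lman2 probe, the other Ern1 probes and the cell type markers fall outside this rule and were named after their values were seen.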

Additional observations from a re-analysis of the deposited data

Results flagged for a closer look

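Of 58 probes with 5 replicates, 1 had a replicate far from the others. The 58 were those of the 5 genes and those picked from the lists by the naming rule above. The nearest genes and the probes named outside that rule were not screened. The called Ern1 probe on array design 2 read 0.033 in replicate 4, while its other replicates read from −0.27 to −0.19 and its mean was −0.18 ± 0.12 (SD, n = 5). The gap was above Dixon's critical value for 5 values, 0.71. Such a gap is found by chance in about 1 of 20 groups. None of the 11 probes of Atf4, Dnajc3, Pdia3, P4hb and Canx had one.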

How the results depend on the processing

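The first values are log2 ratios on array design 2 over the centred settings that kept the treated-over-control direction. They were −0.59 to −0.32 for Atf4, 0.19 to 0.73 for Pdia3, 0.12 to 0.33 for P4hb and 0.16 to 0.44 for Canx. Canx is the mean of 2 probes there. Its probe 1 alone lay between −0.07 and 0.31, and its probe 2 between 0.27 and 0.57. Leaving out 1 replicate in turn gave −0.45 to −0.39 for Atf4, 0.46 to 0.51 for Pdia3, 0.27 to 0.32 for P4hb and 0.27 to 0.35 for Canx, and, on array design 1, 0.31 to 0.45 for Canx and 0.04 to 0.17 for Dnajc3. Without centring, values on array design 2 were −0.84 for Atf4, −0.45 for Dnajc3, 0.065 for Pdia3, −0.14 for P4hb (−0.14 and −0.13 by probe) and −0.13 for Canx, and on array design 1 −0.14 for Dnajc3 and 0.077 for Canx. With the trend removed they were −0.59 for Atf4, 0.19 for Pdia3, 0.12 for P4hb and, on array design 1, 0.16 for Canx. Treated RNA in channel 1 alone gave 0.26 for Pdia3 and 0.16 for Canx, and in channel 2 alone 0.73 and 0.44. Read as channel 2 over channel 1, the values were 0.41 for Atf4, −0.49 for Pdia3, −0.29 for P4hb (−0.29 on each probe), −0.30 for Canx (−0.46 on probe 2), −0.67 for the folding genes minus Atf4, and −0.39 for Canx on array design 1.

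Of the 50 probes called on array design 1 and none in its lists, counts were 4615 and 34 without centring, 345 and 6 with arrays scaled, 501 and 6 with plain readouts, 2324 and 23 with channel 1 alone, 1108 and 12 with channel 2 alone, and 1224 and 19 without readouts missing over 5% of values. They were 3 over all probes with B readouts, 12 with a series term, 3 within the 3000 series and 975 with single arrays and the replicate as a random block, and 1 in the lists with an ordinary test. Leaving out 1 replicate gave 7 to 82 and 0 to 1. Of the 2114 and 37 on array design 2, counts were 6655 and 91 without centring, 1076 and 24 with plain readouts, 1190 and 15 with channel 1 alone, 117 and 0 with channel 2 alone, 382 and 8 with the trend removed, 811 and 16 within the 3000 series and 869 and 18 with an ordinary test. Arrays scaled to one spread gave 1331 over all probes. Leaving out 1 replicate gave 1013 to 2637 and 20 to 42. The causes were not tested. Treated and control RNA share each array, so the tests of replicate values against 0 are already paired. Ratios give no signal over background, so what dim spots limit was not analysed here.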
